A study of Mus musculus with 9 samples.

Results

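The comparison described here set the gastrocnemius, the large calf muscle, of the limb opposite the irradiated one (CL) against the same muscle of mice that received no radiation (CTL). Its members were 3 CL and 3 CTL libraries, chosen by their labels, so that 6 of the 9 libraries of the series entered the contrast. All mice were C57Bl6J, a common inbred laboratory strain, and about 8 weeks old at collection. The irradiated mice were exposed at 4 weeks of age in 3 sessions of 8.2 Gy, per the series description, and the labels place collection 3 weeks later. The ages and the interval given differ by about a week, which the sources used here do not explain. CTL mice are labelled as having received 0 Gy, and whether they went through sham handling is not given in the sources used here. The remaining 3 libraries (RL) came from the irradiated limb. CL and RL libraries of the same number came from 1 mouse, and CTL from other animals, so replicates within a group were separate animals and the series holds 6 mice.

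Radiation given to one region of the body is known to act on tissue outside the beam through circulating cells, cytokines and hormones, and the opposite limb is commonly used as an internal control. Muscle fibres run their own circadian clock. In it ARNTL (BMAL1) pairs with CLOCK or NPAS2 on E-box sequences and drives the Per and Cry repressors, Ciart, Bhlhe41 and the output factors Dbp, Tef and Hlf, whose proteins bind D-boxes, while ROR and REV-ERB proteins act on ROR elements in Arntl. The hour of dissection is not given in the sources used here.

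The gene with the smallest p between CL and CTL, Gm28653, was a lincRNA on chromosome 1 (chr1:20669882-20684298, + strand, GRCm38) whose span holds the genes of Mir206 and Mir133b, miRNAs enriched in skeletal muscle. Their main mature strands, from RefSeq on GRCm38.p6, are printed 5′ to 3′ with the seed (bases 2 to 8) in capitals, since they are what the locus is known for.

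mmu-miR-206-3p: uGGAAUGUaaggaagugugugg

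mmu-miR-133b-3p: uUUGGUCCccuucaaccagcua

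The libraries did not measure mature miRNAs: the Mir206 row held at most 1 count in a library and the Mir133b row held 0. Promoter windows of 300 bases, from 250 before to 50 after an annotated start (for Arntl the second of its starts), were also read from RefSeq on GRCm38.p6 for clock genes. The 3 printed here belong to clock genes with an unadjusted p under 0.05 between the groups. They were picked because they hold the motifs of the loop described above. The windows of Cry2, Npas2, Dbp, Hlf and Clock held none of these motifs, nor did the other window of Arntl. Capitals mark the ROR element core TAGGTCA in Arntl (chr7:113207261-113207560, + strand), the D-box TTATGTAA in Per3 (chr4:151044616-151044915, - strand) and the E-box CACGTG in Ciart (chr3:95882179-95882478, - strand), each searched on both strands.

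Arntl promoter: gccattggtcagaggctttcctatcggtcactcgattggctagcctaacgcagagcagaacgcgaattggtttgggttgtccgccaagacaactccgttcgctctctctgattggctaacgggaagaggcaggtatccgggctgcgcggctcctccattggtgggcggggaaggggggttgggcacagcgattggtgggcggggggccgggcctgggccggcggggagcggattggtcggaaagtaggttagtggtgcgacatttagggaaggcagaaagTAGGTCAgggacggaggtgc

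Per3 promoter: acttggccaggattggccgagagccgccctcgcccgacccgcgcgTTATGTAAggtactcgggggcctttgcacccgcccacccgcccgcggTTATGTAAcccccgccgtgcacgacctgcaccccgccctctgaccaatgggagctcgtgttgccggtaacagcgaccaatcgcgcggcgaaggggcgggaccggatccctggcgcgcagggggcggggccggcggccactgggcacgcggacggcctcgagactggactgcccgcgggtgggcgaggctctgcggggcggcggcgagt

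Ciart promoter: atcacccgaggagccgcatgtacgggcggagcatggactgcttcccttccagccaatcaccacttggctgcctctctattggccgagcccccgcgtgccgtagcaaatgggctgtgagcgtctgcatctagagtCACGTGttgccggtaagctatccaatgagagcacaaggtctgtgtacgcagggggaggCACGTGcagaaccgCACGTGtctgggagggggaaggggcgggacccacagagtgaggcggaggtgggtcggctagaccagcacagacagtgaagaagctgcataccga

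Of the 17 clock genes with a window, 5 held the E-box (Bhlhe41, Ciart, Cry1, Per1 and Tef), against 8.09% of all 27025 genes with a window. The D-box was in 1 of the 17 (Per3), against 1.11% of all genes, and the ROR core in 2 (Arntl and Nfil3), against 2.97%. A match is a description of letters and was not tested as a binding site.

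Library totals ran from 30.8 to 44.6 M counts, with 31.1% to 51.8% of counts on mitochondrially encoded genes and 10.5% to 18.1% on Ttn, which encodes titin. The muscle label was borne out by its defining genes: Acta1, skeletal actin, was at 6962 to 11558 CPM over the 9 libraries, Ckm, creatine kinase, at 7161 to 10828 CPM and Myh4, the fastest myosin, at 23908 to 38709 CPM. CPM are counts per 1e6 of a library's effective size, its total after TMM scaling. In genes above all other libraries, CL 1 stood apart. It had 30 genes at least 4-fold above each of the other 8 libraries, while CTL 1 to 3, CL 2 and CL 3 had 0 and the RL libraries 0 to 2. Genes at least 4-fold below each of the other 8 numbered 9 in CTL 2, 4 in CTL 3, 2 in CL 3 and 0 in the rest. CTL 2 also had the lowest share of mitochondrially encoded counts, 31.1%, so the controls were not uniform. Of the 30 genes of CL 1, those with a wide gap included Igkc, Btla, Cd209b, Cxcl13, H2-Ob, Bank1 and Ltbp2. Bank1, a B cell scaffold protein, was at 9.61 CPM in CL 1 and at most 1.41 CPM elsewhere. The B cell marker Ms4a1 had 338 counts in CL 1 and no more than 5 in another library, and the T cell marker Cd3e had 51 against at most 3. Glycam1, made by the high endothelial venules of lymph nodes, had 129 counts in CL 1 and 0 in the other 8 libraries, while Ccl21a was at 0 in all 9. Fold changes and counts are therefore given with and without CL 1.

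No gene passed the main test between CL and CTL (edgeR quasi-likelihood test, Benjamini-Hochberg adjusted p under 0.05, 0% of 14989 genes), and the lowest adjusted p was 0.103. Without CL 1 the count was again 0 (0% of 15146), with a lowest adjusted p of 0.109. At an unadjusted p under 0.05 there were 997 genes (6.65%), of which 668 were higher (4.46%) and 329 lower (2.19%) in CL. Without CL 1 there were 546 (3.6%), 240 higher (1.58%) and 306 lower (2.02%). The excess of higher genes thus went with CL 1: of the 668, 149 (22.3%) had an unadjusted p under 0.05 without it, and CL 1 was the highest of all 9 libraries in 479 (71.7%). Of the 329 lower genes, 169 (51.4%) had such a p without CL 1, and CL 1 was the lowest library in 102 (31%). The unadjusted count was 1943 when CL 2 was left out, and 300 when both CL 1 and CL 3 were.

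DESeq2, run on the same counts as an alternative, called 16 of 16268 genes (0.0984%) at an adjusted p under 0.05, 5 higher (0.0307%) and 11 lower (0.0676%) in CL. Without CL 1 it called 13 of 11050 (0.118%), 7 higher (0.0633%) and 6 lower (0.0543%), and 9 genes were in both lists. limma-voom called 0 in either setting, with 736 and 519 genes at an unadjusted p under 0.05. In the authors' deposited table there were 12 of 19086 genes (0.0629%) with an adjusted p under 0.05, 5 higher and 7 lower, and 8 of these were among the 16. The genes in these lists included noncoding RNAs such as Gm28653 and the clock genes Arntl, Cry2 and Per3.

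**Figure D1:**
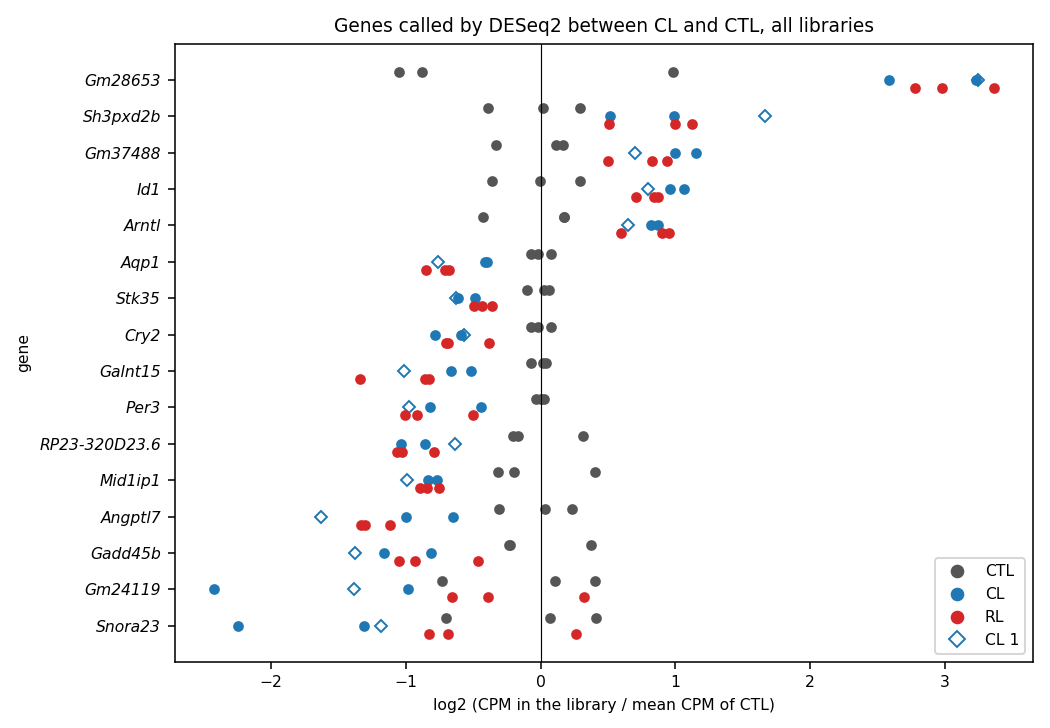
Level of the 16 genes called by DESeq2 between CL and CTL with all libraries; the horizontal axis is the log2 of CPM in a library over the mean CPM of CTL, each point is 1 library and the open diamond is CL 1. The CL libraries lie to one side of all CTL libraries for each gene, Gm28653 lies farthest to the right, and the RL points of the snoRNAs Snora23 and Gm24119 spread over the CTL range.

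The lincRNA Gm28653 had the smallest p of all genes with and without CL 1. Its level was 0.226, 0.254 and 0.922 CPM in CTL 1 to 3 and 4.44, 4.40 and 2.81 CPM in CL 1 to 3. The groups did not overlap, CTL 3 was the highest control and CL 3 the lowest CL library. The RL libraries, from the same mice as CL, were at 3.69, 4.83 and 3.21 CPM, within the range of the opposite limb or just above it. The log2 fold change between CL and CTL was 3.08 (SE 0.41), or 8.49-fold, with an edgeR adjusted p of 0.103 and a DESeq2 adjusted p of 1.53e-10. Without CL 1 it was 2.98 (SE 0.41), and edgeR and DESeq2 gave 0.109 and 0.0061 as adjusted p. CTL 3 weighed on this value: without it the log2 fold change was 4.01 with an edgeR adjusted p of 0.00364, and 3.90 with 0.00136 when CL 1 was also left out. In the authors' deposited table its log2 fold change was 1.28 with an adjusted p of 2.42e-08.

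A second noncoding transcript, Gm37488, an unverified single transcript inside Mbnl1 on chromosome 3, was at 8.74, 6.43 and 9.10 CPM in CTL and 13.1, 16.1 and 18.0 CPM in CL. The groups did not overlap and CL 1 was the lowest CL library. The log2 fold change was 0.96 (SE 0.17; DESeq2 adjusted p = 0.000875; edgeR adjusted p = 0.526) and 1.08 without CL 1 (DESeq2 adjusted p = 2.12e-05). Reads of the same strand from Mbnl1, which encodes a splicing factor, cannot be told apart from those of Gm37488 because the counting rule is not stated. Lncpint, a lincRNA known as a target of p53, and Gm37728, which lies inside it, were named after their values were seen. Both lie on the same strand, so their reads cannot be told apart. DESeq2 called both only when CL 1 was left out: Lncpint stood at 0.78 (adjusted p = 0.00941) and Gm37728 at 1.22 (adjusted p = 0.00517). With all libraries Gm37728 was at 1.02 (SE 0.27) and Lncpint at 0.56 (SE 0.21). For Lncpint, CL 1 at 13.3 CPM lay within the CTL range of 12.0 to 15.7 CPM, while CL 2 and CL 3 were at 21.7 and 25.6 CPM.

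Of the clock genes, 10 had an unadjusted p under 0.05. The activators Arntl and Npas2 were higher in CL, and the repressors Cry2, Per3 and Per2, the outputs Dbp, Tef and Hlf, and Ciart and Bhlhe41, which restrain the activators, were lower. Of the 21 tested genes of the list, 2 were thus higher and 8 lower, against 4.46% and 2.19% of all genes. The other 11, Clock, Cry1, Per1 and Nfil3 among them, did not reach that level. Without CL 1 there were 3 and 6, against 1.58% and 2.02%, with Clock added and Ciart and Bhlhe41 no longer past 0.05. All CL libraries lay beyond all CTL libraries in 10 members, 2 higher and 8 lower, while 9.39% of all genes had groups that did not overlap (3.91% higher, 5.48% lower). Without CL 1 these were 3 and 8 members, with 18.9% of all genes (9.11% higher, 9.82% lower). The median log2 fold change of the list was -0.20, and -0.10 without CL 1, beside a median near 0 (-0.0035) over all genes.

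Arntl, the core activator, was at 8.11, 8.15 and 5.35 CPM in CTL and 11.3, 12.7 and 13.2 CPM in CL. Every CL library was above every CTL library, and the RL libraries, at 13.4, 10.9 and 14.0 CPM, lay in or near the CL range. The log2 fold change was 0.78 (SE 0.16; DESeq2 adjusted p = 0.0256; edgeR adjusted p = 0.608), and 0.84 without CL 1 (DESeq2 adjusted p = 0.0111). Npas2, a partner of ARNTL, was at 0.352, 0.423 and 0.297 CPM in CTL and 1.36, 0.944 and 0.696 CPM in CL. These groups did not overlap either, although the gene is low in muscle, and its log2 fold change was 1.48 (SE 0.31), or 1.19 (SE 0.31) without CL 1. Clock, the other partner, was at 42.3 to 51.7 CPM in CTL and at 49.8 CPM in CL 1, with 57.1 and 62.4 CPM in CL 2 and CL 3. Its log2 fold change was 0.25 (SE 0.12) with all libraries and 0.33 (SE 0.11) without CL 1, where the groups no longer overlapped.

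Cry2, which represses CLOCK and ARNTL, was at 18.7, 18.1 and 20.02 CPM in CTL and 12.8, 12.6 and 10.996 CPM in CL. The values of each group lay close together and the groups did not overlap. The log2 fold change was -0.64 (SE 0.12; DESeq2 adjusted p = 0.00784; edgeR adjusted p = 0.526), and -0.68 without CL 1 (DESeq2 adjusted p = 0.00941). Per3, a period gene, was at 39.2, 37.6 and 38.7 CPM in CTL against 19.5, 28.3 and 21.8 CPM in CL. CL 1 was the lowest of the 6, and the groups did not overlap with or without it. Its log2 fold change was -0.73 (SE 0.16; DESeq2 adjusted p = 0.0191) and -0.62 without CL 1, where it no longer passed DESeq2 (adjusted p = 0.0881).

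The output factors Dbp, Tef and Hlf were each lower at an unadjusted p under 0.05, while Nfil3, a repressor that binds the same D-boxes, was at 0.38 (0.26 without CL 1) and did not reach that level. Dbp was at 29.0, 33.5 and 33.7 CPM in CTL and 16.9, 22.8 and 21.4 CPM in CL, with a log2 fold change of -0.66 (SE 0.17), or -0.54 (SE 0.16) without CL 1. Tef was at 132 to 148 CPM in CTL and 97.6 to 118 CPM in CL, with log2 fold changes of -0.38 and -0.32. Hlf had log2 fold changes of -0.46 and -0.42. In all 3 genes the groups did not overlap, and none passed DESeq2 (adjusted p = 0.118 for Dbp and Tef and 0.495 for Hlf). Per2 had log2 fold changes of -0.56 and -0.59, but its CTL libraries ranged from 6.80 to 13.3 CPM and CTL 1 overlapped with CL. Ciart, a repressor of ARNTL that held 3 E-boxes in the window printed above, was at 3.72 to 3.92 CPM in CTL and 2.20, 2.93 and 3.24 CPM in CL, with log2 fold changes of -0.45 and -0.31. The 11 clock genes that did not reach an unadjusted p of 0.05 had log2 fold changes from -0.21 to 0.38. RL is set against the same CTL libraries and the same mice as CL, so its clock values, Cry2 at 14.5, 11.7 and 11.6 CPM and Per3 at 19.2, 27.2 and 20.4 CPM among them, are given beside CL as values only.

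**Figure D2:**
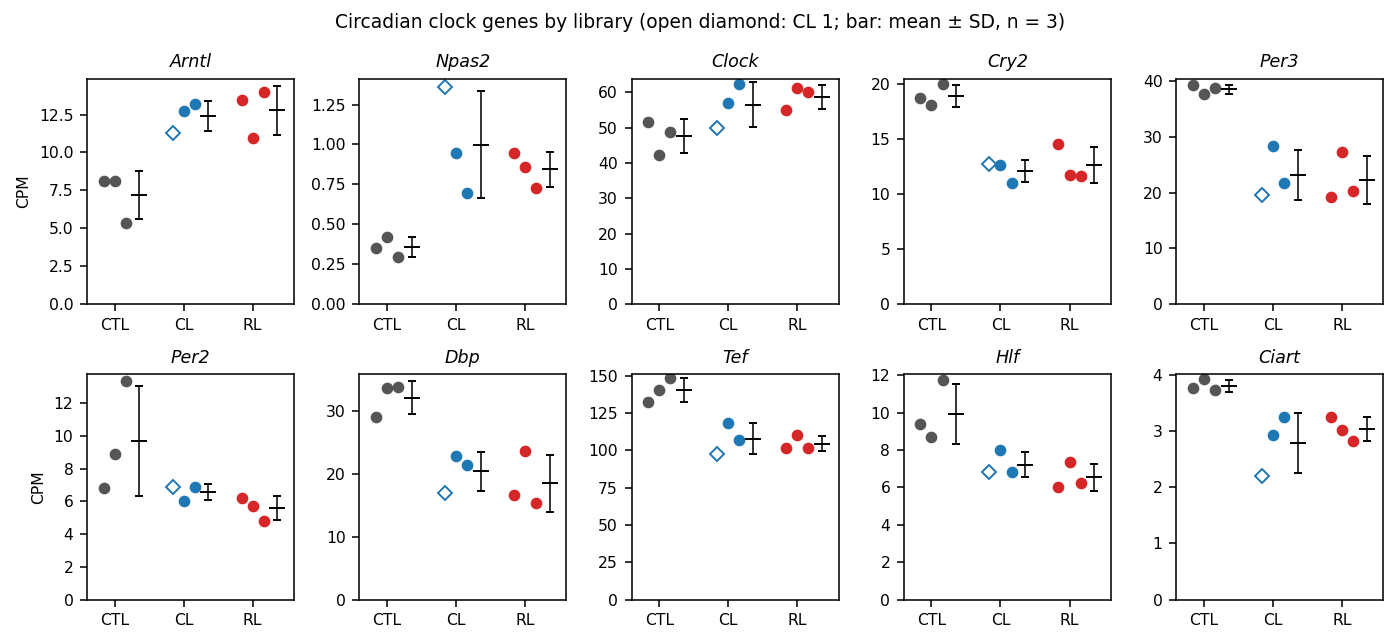
Clock genes by library, in CPM; each point is 1 library, the open diamond is CL 1 and the bar is the mean ± SD of 3 libraries. CL lies above CTL for Arntl and Npas2 and below it for Cry2, Per3, Dbp, Tef, Hlf and Ciart, while Per2 and Clock overlap with all libraries.

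The other genes that DESeq2 called had varied roles. Angptl7, an angiopoietin-like secreted protein, was at 25.2, 19.9 and 29.0 CPM in CTL and 7.98, 15.8 and 12.4 CPM in CL. The groups did not overlap with or without CL 1, the lowest of the 6. The log2 fold change was -1.04 (SE 0.21; DESeq2 adjusted p = 0.00787), and -0.81 (SE 0.16; adjusted p = 0.0061) without CL 1. Mid1ip1, which promotes fatty acid synthesis by acting on acetyl-CoA carboxylase, was at 8.66, 7.98 and 13.1 CPM in CTL and 4.98, 5.81 and 5.56 CPM in CL. Its log2 fold change was -0.86 (DESeq2 adjusted p = 0.0191) and -0.80 without CL 1 (adjusted p = 0.0883). Galnt15, a glycosyltransferase, and Stk35, a protein kinase, had log2 fold changes of -0.72 and -0.57 and were called only with CL 1 included, at -0.59 and -0.55 without it. A transcript listed as RP23-320D23.6, which the annotation used here does not match, had -0.83 and -0.94 and was called in both settings.

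Gadd45b, a stress-inducible gene of the Gadd45 family, was at 6.18, 9.36 and 6.16 CPM in CTL and 2.78, 4.11 and 3.24 CPM in CL. Its log2 fold change was -1.10 (SE 0.22; DESeq2 adjusted p = 0.0179), and -0.98 (adjusted p = 0.048) without CL 1, with no overlap between groups. Id1, an inhibitor of basic helix-loop-helix factors and a target of BMP signalling, was at 1.63, 2.57 and 2.08 CPM in CTL and 3.64, 4.38 and 4.07 CPM in CL. These groups did not overlap, and the log2 fold change was 0.95 (SE 0.17; DESeq2 adjusted p = 0.0191), and 1.01 (adjusted p = 0.0135) without CL 1. In the list of myostatin and TGF-beta family genes, Acvr1b, a type I receptor, and the ligand Bmp4 had log2 fold changes of -0.38 and -0.57, and -0.27 and -0.51 without CL 1. Mstn, myostatin, was at -0.28 and -0.17. Of the 24 tested members 1, Id1, was higher and these 3 were lower at an unadjusted p under 0.05, beside 4.46% and 2.19% of all genes. Without CL 1 there were 1 and 2, beside 1.58% and 2.02%, and Mstn was no longer among them. With all libraries the other 20 did not reach that level. Sh3pxd2b, an adaptor of podosomes, was at 6.001, 4.96 and 3.75 CPM in CTL and 15.6, 7.02 and 9.74 CPM in CL. CL 1 held the top value, and the log2 fold change of 1.14 (DESeq2 adjusted p = 0.0496) was 0.76 without it (adjusted p = 0.361).

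Among small nuclear and nucleolar RNAs, DESeq2 called 2 with all libraries, both lower in CL. Snora23, an H/ACA guide RNA inside Ipo7, was at 5.93, 4.68 and 2.74 CPM in CTL and 1.95, 1.79 and 0.936 CPM in CL, with a log2 fold change of -1.50 (SE 0.36; DESeq2 adjusted p = 0.0471), or -1.70 without CL 1 (adjusted p = 0.0061). No CL library overlapped with CTL, and the RL libraries reached 5.34 CPM. Gm24119, annotated as a snoRNA inside Slc25a3, had a log2 fold change of -1.48 and was called by DESeq2 only with CL 1 included. It stood at -1.53 without CL 1, at -2.42 when CL 2 was left out as well and at -0.99 when CL 3 was. Rnu3a, a U3 snoRNA, was at -0.59 with all libraries and at -1.12 without CL 1, where DESeq2 called it. Reads of Ipo7 and Slc25a3 on the same strand cannot be told apart from those of Snora23 and Gm24119, since the counting rule is not stated. The class was examined after these values were seen: of 90 tested snoRNA, snRNA and scaRNA genes, 1 was higher and 10 lower at an unadjusted p under 0.05, beside 4.46% and 2.19% of all genes. Without CL 1 these were 2 and 10 of 99, beside 1.58% and 2.02%. Their medians were -0.12 and -0.11, beside -0.0035 over all genes.

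In the DNA damage response, Cdkn1a was higher in CL at an unadjusted p under 0.05 with and without CL 1. Cdkn1a, a p53 target whose product p21 halts the cell cycle, was at 1.58, 2.17 and 1.73 CPM in CTL and 5.62, 3.05 and 2.73 CPM in CL. All CL libraries were above all CTL libraries, and the RL libraries, at 13.9, 9.68 and 11.1 CPM, were above both. The log2 fold change between CL and CTL was 1.07 (SE 0.27), or 0.66 (SE 0.20) without CL 1, and neither passed edgeR (adjusted p = 0.691 and 0.999) or DESeq2 (adjusted p = 0.117 and 0.971). Of the 27 tested p53 targets 2 were higher and 3 lower at that level, beside 4.46% and 2.19% of all genes. Without CL 1 there was 1 of 29 in each direction, Cdkn1a and the repair gene Xpc (-0.30), beside 1.58% and 2.02%. The lower ones with all libraries were Tigar (-0.37, and -0.29 without CL 1), Ephx1 (-0.30 and -0.22) and Xpc (-0.30), and the list's median was 0.05 and 0.06. Of 30 DNA repair genes only H2afx (0.57) had such a p, and none had one without CL 1, where its value was 0.27. Glb1, the lysosomal galactosidase used as a senescence marker, was at 1.68, 1.33 and 1.46 CPM in CTL. It was at 2.76, 1.98 and 2.22 CPM in CL, without overlap, with log2 fold changes of 0.64 and 0.49. Of 17 senescence and secretory genes 5 were higher and 0 lower at that level, and 3 and 0 of 18 without CL 1. Their median was 0.56, and 0.05 without CL 1.

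Pax7, the marker of muscle stem cells, was at 1.58, 2.26 and 1.55 CPM in CTL and 1.75, 1.11 and 1.85 CPM in CL. The groups overlapped, and the log2 fold change was -0.19 (SE 0.27), or -0.29 (SE 0.29) without CL 1. RL from the same mice was at 0.666, 0.441 and 0.364 CPM, below each CL and CTL library. In bulk muscle, fewer cells of a type and less RNA per cell cannot be told apart. Of 25 satellite cell markers, 2 were higher and 0 lower at an unadjusted p under 0.05, beside 4.46% and 2.19% of all genes, and 1 and 2 without CL 1, beside 1.58% and 2.02%. Calcr, a receptor of quiescent satellite cells, stood at -0.41 and -0.67, and the collagen gene Col5a3 at 0.62 and 0.39.

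Lists of immune genes held members that were higher in CL, and most of those counts were lower without CL 1. The shares of all genes to read them against were 4.46% higher with all libraries and 1.58% without CL 1. Summed over the B cell list, CL 1 was at 163.6 CPM, CTL at 44.9 to 54.4 CPM and CL 2 and CL 3 at 54.3 to 54.4 CPM, with CL 1 the highest library in 20 of 21 genes. Summed over the T cell list, CL 1 was at 44.1 CPM against 4.595 to 7.42 CPM elsewhere, and it was the highest in 23 of 24 genes. Of 6 tested B cell markers 4 were higher at an unadjusted p under 0.05 and of 4 T cell markers 3, and none were without CL 1. The median of the B cell list moved from 2.16 to 0.23 and that of the T cell list from 3.42 to 0.25. In a fit of CL and CTL libraries alone the T cell median was -0.12 even with CL 1. The filter on low counts was applied anew to those libraries, so the members behind that median can be other or fewer. Which members remained is not given here, and the cause was not tested. Igkc, the kappa light chain constant gene, was at 13.8 CPM in CL 1 and 0.121 and 0.696 CPM in CL 2 and CL 3, so that CL 2 lay within the CTL range of 0.0753 to 0.268 CPM and CL 3 above it. It had a log2 fold change of 5.12 (SE 1.41), or 1.51 (SE 0.75) without CL 1. Ighm, the IgM heavy chain gene, was at 59.4 CPM in CL 1, 32.8 and 32.6 CPM in CL 2 and CL 3 and 22.5 to 32.6 CPM in CTL, at 0.54 and 0.19. Irf4, a transcription factor of plasma cells and other leukocytes, differed also without CL 1: it was at 1.63, 2.00 and 1.49 CPM in CTL and 3.21, 2.66 and 2.68 CPM in CL. Its log2 fold change was 0.74 (SE 0.17), and 0.64 (SE 0.19) without CL 1, with no overlap in either setting.

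Macrophage markers were higher at an unadjusted p under 0.05 in 15 of 24 tested genes, and in 2 of 24 without CL 1. Those 2 were Tyrobp, a signalling adaptor of myeloid cells, at 0.68 (1.23 with CL 1), and Cd163, a scavenger receptor of resident macrophages, at 0.29 (0.31 with CL 1). Summed over the list, CTL ran from 121 to 167 CPM and CL was at 336, 149 and 195 CPM, so that only CL 2 fell inside the CTL range. Lyz2, lysozyme of macrophages, was at 29.5, 24.9 and 20.2 CPM in CTL and 91.7, 26.8 and 39.4 CPM in CL, and its log2 fold change of 1.08 was 0.41 without CL 1. Among antigen presentation genes 7 of 17 were higher at that level, and 1 without CL 1. That 1 was Ciita, the master regulator of MHC class II, at 0.527, 0.620 and 0.565 CPM in CTL and 5.39, 0.678 and 1.39 CPM in CL, with log2 fold changes of 2.14 and 0.84. Cd74, the class II invariant chain, was at 0.93 and 0.13. Of the 4 tested neutrophil genes, Il1b, an inflammatory cytokine, and Mmp9, a matrix protease, were past that level with and without CL 1. Il1b was at 0, 0.0282 and 0 CPM in CTL and 0.967, 0.0726 and 0.134 CPM in CL, too few counts for a fold change that does not depend on the prior count. Mmp9 had log2 fold changes of 0.86 and 0.69. Interferon response genes had 3 of 32 higher with all libraries and 1, Ifi27l2a, without CL 1 (1.14 and 0.63), and their median moved from 0.27 to -0.10.

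**Figure D3:**
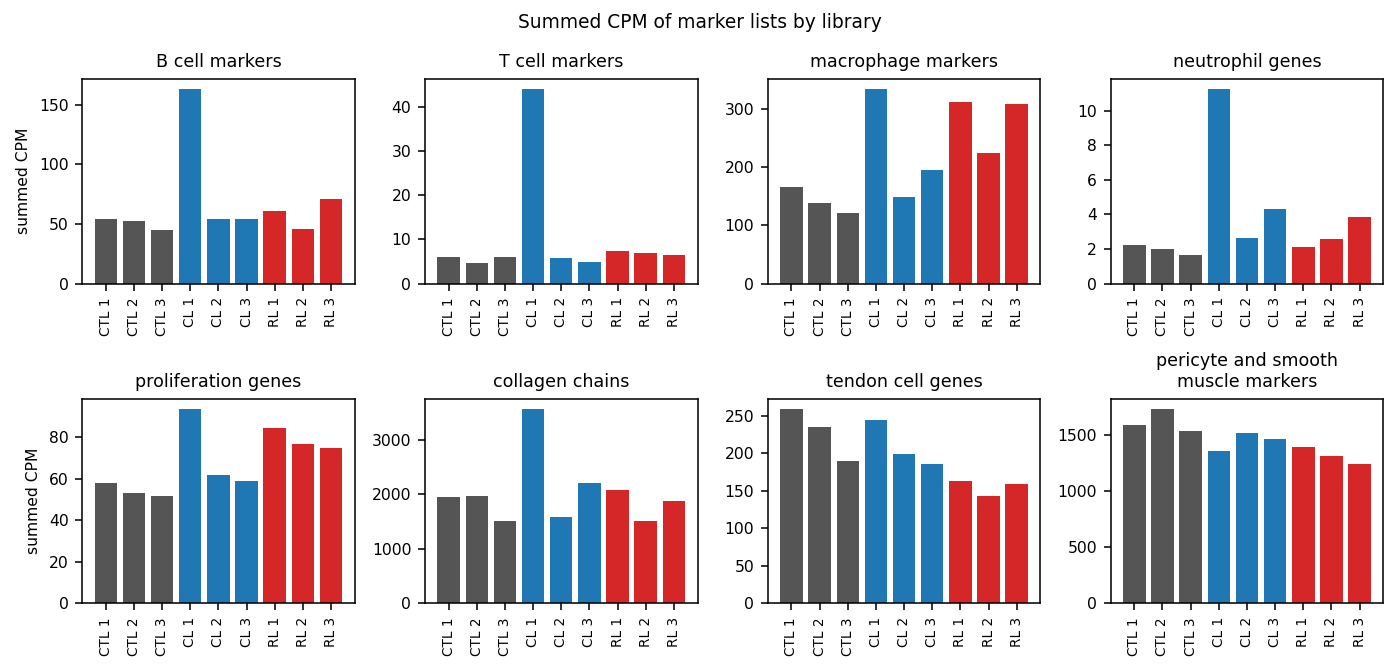
Summed CPM of 8 gene lists in each of the 9 libraries, with CTL in grey, CL in blue and RL in red. CL 1 is the highest bar for B cell, T cell, macrophage and neutrophil genes, proliferation genes and collagen chains, and in the B cell panel CL 2 and CL 3 stand at 54.4 and 54.3 CPM beside 44.9 to 54.4 CPM in CTL.

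The genes of cell division, regeneration and matrix moved with the same library. Of 28 proliferation genes 11 were higher at an unadjusted p under 0.05 and 0 without CL 1, and the median went from 0.97 to 0.17. Over all genes 4.46% were higher at that level, and 1.58% without CL 1. Mki67, the Ki-67 gene, was at 1.78, 1.24 and 1.37 CPM in CTL and 10.4, 0.847 and 2.09 CPM in CL, and its log2 fold change of 1.62 (SE 0.68) was -0.02 (SE 0.36) without CL 1. Of 18 regeneration genes 6 were higher and 0 without CL 1. Myh3, the embryonic myosin heavy chain of newly formed fibres, was at 1.26, 0.959 and 1.34 CPM in CTL and 33.0, 1.60 and 3.45 CPM in CL. There was no overlap between the groups, and the log2 fold change was 3.43 (SE 1.06), or 1.08 (SE 0.70) without CL 1. Myh8 and Myog had 1.45 and 0.99, and 0.75 and 0.32 without CL 1. RL 1, from the same mouse as CL 1, was at 9.78 CPM of Myh3 while RL 2 and RL 3 were at 1.52 and 1.65 CPM. The share of the lymphoid transcripts of CL 1 in these values was not tested.

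Matrix genes differed less once CL 1 was left out. Of 28 matrix and matricellular genes 12 were higher and 1 lower at an unadjusted p under 0.05, and 3 and 2 without CL 1. The shares over all genes were 4.46% higher and 2.19% lower, and 1.58% and 2.02% without CL 1. Postn, periostin, was at 158 CPM in CL 1 and at 9.61 to 21.9 CPM in the CTL libraries, CL 2 and CL 3, with log2 fold changes of 2.33 and 0.50. Ctgf, connective tissue growth factor, was among the 3 and was at 11.6, 13.1 and 9.25 CPM in CTL and 17.7, 15.4 and 17.7 CPM in CL, with log2 fold changes of 0.58 (SE 0.15) and 0.55 (SE 0.17). Lum, the collagen-binding proteoglycan lumican, had 0.47 and 0.38, and Timp3, an inhibitor of matrix proteases, -0.30 and -0.23, in each case with groups that did not overlap. Col1a1, the main chain of type I collagen, was at 702 CPM in CL 1, 241 and 330 CPM in CL 2 and CL 3 and 203 to 352 CPM in CTL, at 0.56 and -0.02. Of 21 collagen chains 4 were higher and 0 lower, and 1 and 2 without CL 1.

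In the lists of vessel, nerve and tendon genes most members did not reach an unadjusted p of 0.05. Among all genes 2.19% were lower at that level, and 2.02% without CL 1. Aqp1, the water channel of capillary endothelium, was at 119, 124 and 132 CPM in CTL and 73.8, 94.1 and 95.2 CPM in CL. The groups did not overlap, and the log2 fold change was -0.51 (SE 0.12; DESeq2 adjusted p = 0.0239), or -0.41 (SE 0.10; adjusted p = 0.113) without CL 1. Aplnr, the apelin receptor, had -0.56 and -0.73, and these were the 2 of 22 endothelial markers with an unadjusted p under 0.05 in both settings. Among 13 pericyte and smooth muscle markers 3 were lower and none higher at that level, and 2 and 0 without CL 1. Pdgfrb, the PDGF receptor of pericytes, was at 26.9, 27.4 and 25.9 CPM in CTL and 25.1, 20.2 and 21.2 CPM in CL, and Myh11, smooth muscle myosin, at 19.2, 19.3 and 19.01 CPM against 16.6, 15.6 and 16.9 CPM. Their log2 fold changes were -0.27 and -0.23, and -0.37 and -0.24 without CL 1. The groups did not overlap in 6 of the 13 markers, all lower, and in 7 without CL 1, beside 5.48% and 9.82% of all genes.

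Of 18 Schwann cell and myelin genes, 2 were lower at an unadjusted p under 0.05 and 0 higher in both settings, beside 2.19% and 2.02% of all genes lower. Prx, periaxin of myelinating Schwann cells, was at 4.595, 4.48 and 3.72 CPM in CTL and 2.65, 3.12 and 2.86 CPM in CL, with log2 fold changes of -0.57 and -0.52. Mag, myelin-associated glycoprotein, had -0.89 and -0.97. Of 14 tendon cell genes 5 were lower and 0 higher, and 3 and 0 without CL 1, and the median was -0.31 and -0.28. Kera, keratocan, was at 16.6, 13.6 and 14.4 CPM in CTL and 9.05, 13.3 and 10.4 CPM in CL, without overlap, with log2 fold changes of -0.45 and -0.33. Fmod and Chad, leucine-rich proteins of tendon matrix, had -0.43 and -0.73, and -0.27 and -0.51 without CL 1, and CL 1 was the lowest of the 6 for Chad at 2.37 CPM.

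Fibre and energy genes showed no member past an unadjusted p of 0.05 with or without CL 1 in the lists of fast fibre (17 tested), slow fibre (16), glycolysis (27), oxidative phosphorylation (41), mitochondrially encoded (9) and cytosolic ribosomal protein genes (41). Myh4, the myosin of the fastest fibres, was at 35265, 38709 and 35840 CPM in CTL and 29923, 29611 and 30534 CPM in CL. No CL library overlapped with CTL, and the log2 fold change was -0.29 (SE 0.17), or -0.29 (SE 0.18) without CL 1. In fatty acid use, 1 of 36 genes was higher and 3 lower, beside 4.46% and 2.19% of all genes. Without CL 1 there were 2 and 1, beside 1.58% and 2.02%. Ppargc1b, a coactivator of mitochondrial genes, was among the lower ones in both settings, at -0.31 and -0.35. In lipogenesis Gpam, which makes the first intermediate of triglycerides, was lower beside Mid1ip1, at -0.36 and -0.30.

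Of 26 genes that respond to glucocorticoids, 2 were higher at an unadjusted p under 0.05 with all libraries, beside 4.46% of all genes, and 5 without CL 1, beside 1.58%, with 0 lower in both. The difference between these counts was not tested. The 5 were Cebpd, Cdkn1a, Errfi1, Sgk1 and Pdk4. Cebpd, a C/EBP transcription factor, was at 5.93, 7.27 and 6.19 CPM in CTL and 5.04, 11.3 and 16.9 CPM in CL, so that CL 1 lay below the CTL range and CL 2 and CL 3 above it. Its log2 fold change was 0.77 (SE 0.37), and 1.12 (SE 0.26; DESeq2 adjusted p = 0.0119) without CL 1. Errfi1, an inhibitor of EGF receptor signalling, Sgk1, a kinase, and Pdk4, which blocks pyruvate oxidation, were at 0.71, 0.52 and 0.37 without CL 1, and at 0.61, 0.35 and 0.26 with it. Fkbp5, a direct target of the receptor, was at 12.5, 16.1 and 16.9 CPM in CTL and 14.1, 15.2 and 18.8 CPM in CL, with overlap, at 0.08 and 0.17. The median of the list was 0.10 and 0.07.

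Of 19 tested insulin-like growth factor genes, 2 were higher and 1 lower at an unadjusted p under 0.05 in both settings. Among all genes 4.46% were higher and 2.19% lower at that level, and 1.58% and 2.02% without CL 1. The 2 were Igfbp4, a binding protein, and H19, an imprinted lincRNA, and the lower 1 was Igf1r, the receptor. Their log2 fold changes were 0.53, 0.48 and -0.23, and 0.33, 0.44 and -0.22 without CL 1. Of 25 immediate early genes 4 were higher and 0 lower at that level, and 3 and 0 without CL 1. Klf2, Klf4 and Klf6, Krüppel-like factors, were among them in both settings, with no overlap between groups. They stood at 0.73, 0.64 and 0.38, and at 0.64, 0.67 and 0.45 without CL 1. The other 21 ran from -0.77 (Fosb) to 1.90 (Nr4a2) with all libraries. Of 23 apoptosis genes 3 were higher and 0 lower at that level in each setting. Bcl2l1, which opposes cell death, and Casp8, an initiator caspase, were among them in both. These stood at 0.48 and 0.65, and at 0.52 and 0.45 without CL 1. The other 20 ran from -0.68 (Bik) to 0.44 (Bid) with all libraries.

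The 8 highest genes by fold change with groups that did not overlap also included Laptm5 (1.89), Hmha1 (1.63) and Arhgap15 (1.04), genes of blood cells, which stood at 0.74, 0.56 and 0.30 without CL 1. Slc25a25, a mitochondrial carrier of ATP and phosphate, was at 34.2, 42.5 and 59.4 CPM in CTL and 148, 65.1 and 101 CPM in CL, at 1.21 and 0.87, and Zswim6 was at 1.00 and 0.75. Among the 8 lowest, Cdh4, a cadherin, and Zc3h6, a zinc finger gene, had -0.92 and -0.75, and -0.79 and -0.61 without CL 1.

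**Figure D4:**
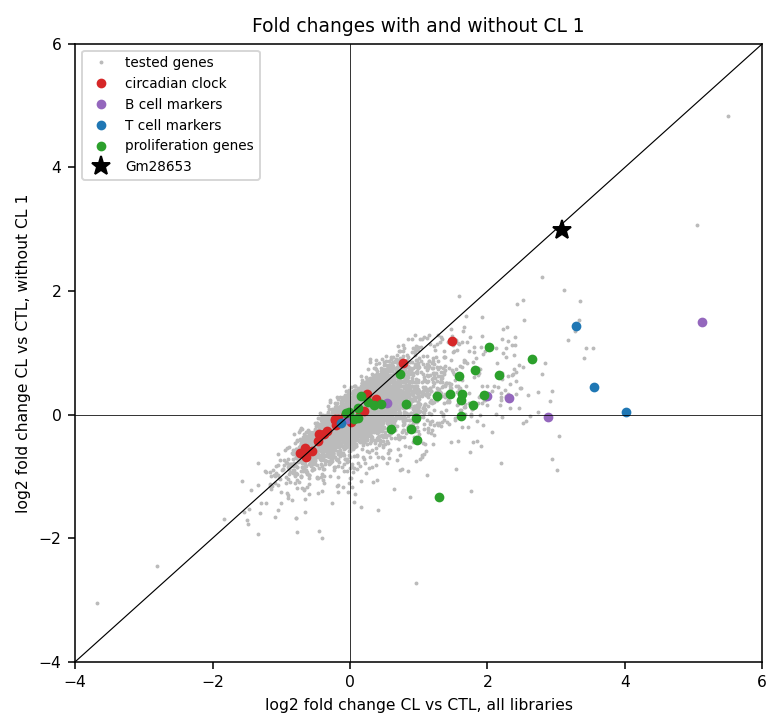
Log2 fold change between CL and CTL of each tested gene with all libraries (horizontal) and without CL 1 (vertical); the line marks equal values. Clock genes and Gm28653 lie near the line, while many B cell, T cell and proliferation genes lie far below it. Without CL 1 the B cell and T cell medians were 0.23 and 0.25, with single members as high as 1.51 and 1.43.

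**Figure D5:**
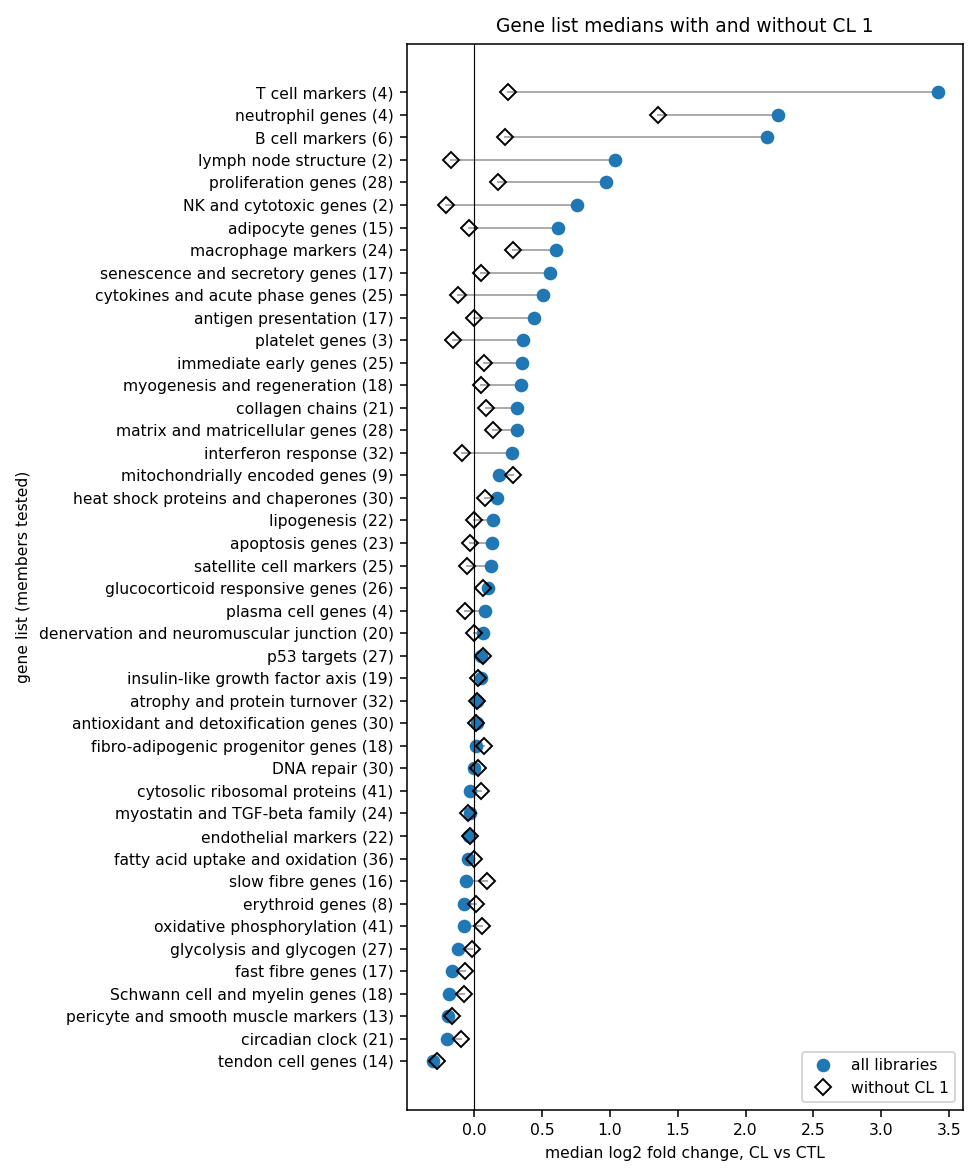
Median log2 fold change between CL and CTL of each gene list, with all libraries (filled circle) and without CL 1 (open diamond), with the number of tested members in brackets. Lists of lymphoid, proliferation and matrix genes move towards 0 without CL 1. The tendon and pericyte medians stay below 0 in both settings, as do several others, those of the clock, Schwann cell and fast fibre lists among them.

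In the authors' deposited table, 3 of the 12 called genes had too few counts for the main test. These were Igkv1-110 and Ltb, lymphoid genes at 2.02 and 1.81 CPM in CL 1, and Krt77, a keratin at 0.144 CPM in CL 1, 0 CPM in CTL and 5.36 CPM in RL 2. The other 9 included Gm28653, Per3, Cry2, Gm37488, Gadd45b, Galnt15, RP23-320D23.6 and Snora23, which DESeq2 also called here, and A430105I19Rik, at -0.58 (SE 0.13) and -0.46 without CL 1 by edgeR.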

How the data were processed

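Total RNA of gastrocnemius was sequenced as stranded libraries, per the labels' protocols, from 9 samples of 6 mice. The authors deposited a table of raw counts for 49568 gene rows, whole numbers with a different total in each library. The reads were placed on GRCm38.p5 and tested with DESeq2, per the submitters' processing notes, while aligner, counter, gene annotation and strandedness at counting were not given in the sources used here. The authors' deposited table of CL against CTL gives a mean normalised signal, a log2 fold change, a test score, and a p-value and adjusted p-value per gene; its log2 values are small for their test scores and may be shrunken, and only its log2 and p-values are printed. Columns of samples not mapped to the labels numbered 0. The 26 rows whose gene name had become a date, at most 0.0536% of a library's counts, were left out.

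Counts were filtered with filterByExpr, scaled by the trimmed mean of M values and tested with edgeR 4.0.16, with all 9 libraries and again without CL 1. The test was the quasi-likelihood test, with Benjamini-Hochberg adjustment over all tested genes. Fold changes were those of the fit at edgeR's default prior count, and a prior count of 2 was used for log2 CPM only. DESeq2 1.42.0 and limma 3.58.1 in R 4.3.3 were alternatives, as were other size factors, no filter, and CL and CTL libraries alone. Further alternatives left out each CTL or CL library, or used blocks by replicate number or mouse. CL and CTL are different mice, and deviations of same-numbered libraries correlated at 0.020, -0.027 and 0.052, so numbers did not pair them. Deviations of CL and RL libraries of the same mouse correlated at 0.295, 0.428 and 0.0731. The reported fit had no term for the mouse and treated these libraries as separate. Depth of 30.8 to 44.6 M counts per library leaves genes with few counts imprecise. Gene positions and types were taken from GENCODE vM21, which matched 14593 of the tested rows.

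Named genes were those called by DESeq2 or in the authors' table, the 8 highest and 8 lowest fold changes among genes with an unadjusted p under 0.05, a regular symbol, mean log2 CPM no lower than 1 and groups that did not overlap, up to 4 members of each described list with the smallest p without CL 1, genes that set CL 1 apart (some are not reported here), and 9 fixed genes. Other named members of lists, Lncpint, Gm37728 and Rnu3a were chosen after their values were seen. The comparison, the 44 gene lists and the rules were chosen with earlier results of these data known.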

Additional observations from a re-analysis of the deposited data

How the results depend on the processing

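With all libraries, edgeR called 0 genes between CL and CTL in the reported fit and also with DESeq2 size factors, with CL and CTL libraries alone, without the mouse of CL 1 and RL 1, and with a replicate block on CL and CTL libraries (755 genes at an unadjusted p under 0.05). limma-voom with the mouse as a random block also called 0 (740 at an unadjusted p under 0.05). With no filter on low counts the count was 714, 664 higher and 50 lower, and CL 1 was the highest of 9 libraries in 562 of them. Of the 714, 546 were genes that pass the filter and were tested but not called in the reported fit. The prior degrees of freedom were infinite with no filter, against 5.89 in the reported fit. DESeq2 called 16. Leaving out each CTL or CL library gave 0 to 1, the 1 being Gm28653 without CTL 3. No fit left out a single RL library. Without CL 1 the counts were 13 by DESeq2 and 70 with no filter, 44 higher and 26 lower. All 70 were genes that pass the filter, and CL 1 was highest in 7 of them. Leaving out a further CTL library gave 0 to 1.

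Of 2558 gene values under the alternatives 2409 kept their direction and side of the threshold, 130 came to pass it, and 19 changed sign, in 11 gene results whose cause was not tested. Leaving out each CTL or CL library in turn, the log2 fold change ranged from -0.31 to 0.0091 for Pax7 and -0.021 to 2.12 for Mki67. It ranged from -0.021 to 0.85 for Col1a1 and -0.038 to 0.17 for Fkbp5. Leaving out the mouse of CL 1 and RL 1 gave -0.016 for Mki67 and -0.015 for Col1a1. With CL 1 already left out, leaving out each further CTL or CL library gave -0.69 to 0.045 for Pax7 and -0.79 to 0.51 for Mki67. The range was -0.26 to 0.20 for Col1a1, -0.31 to 0.48 for Cd74 and -0.20 to 2.30 for Igkc. For Mpeg1 it was -0.056 to 1.19 and for Myh8 -0.098 to 1.30, and limma-voom gave 0.0017 for Col1a1. Of 1097 list medians 54 moved by more than the spread between replicates. That spread was taken with CL 1 included in both settings. It was wide for lists in which CL 1 stood apart (1.57 for T cell and 1.29 for B cell markers), so the count can miss moves in such lists. The median of the T cell list was -0.12 in the fit of CL and CTL libraries alone, where the filter was applied anew. Where leaving out 2 libraries left 1 in a group, that library was taken to vary like the others. The design of 3 against 3 mice and the few counts of genes such as Gm28653, Npas2 and Il1b limit the precision of these values.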
